A study of Mus musculus with 26 samples.

Results

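The mucosal antimicrobial protein genes examined were the beta-defensins Defb14 and Defb1, the whey acidic protein family members Slpi and Wfdc2, the iron-binding proteins Ltf (lactotransferrin) and Lcn2 (lipocalin 2), and the cathelicidin gene Camp. They were found by gene symbol in a table of 18676 rows, in which 6 of the 7 had a row of their own and Lcn2 was not analysed here. The mice were males of the inbred strain CBA, studied in a model in which the DNA-damaging carcinogen 4-NQO gives rise to oral tumors, and RNA was measured in their tongues. Areas were cut by laser from stained paraffin sections as epithelium or as the stroma below it, and each was classed by histology as normal, hyperplasia, dysplasia or tumor. Each compartment had 13 libraries, made up of 3 normal, 3 hyperplasia, 4 dysplasia and 3 tumor libraries. Mice were 16 to 24 weeks old in the normal groups, 20 to 32 weeks in hyperplasia, 16 to 32 weeks in dysplasia and 28 to 32 weeks in tumor, so age and stage were partly linked. The labels do not say which animal a library came from or whether the mice with normal histology had received the carcinogen, so p-values may measure a spread between areas of the same animal and would then be too small.

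Antimicrobial proteins form part of the barrier of the mouth. Beta-defensins are small cationic peptides that keratinocytes secrete and that disrupt microbial membranes. Slpi inhibits serine proteases of neutrophils and also kills microbes, lactotransferrin withholds iron in saliva and in neutrophil granules, and cathelicidin is stored in neutrophil granules and made by stressed epithelium. Keratinocytes raise several of these genes in response to cytokines of the interleukin 1, interleukin 17 and interleukin 22 families.

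On the mouse build GRCm38, with the GENCODE M21 annotation, all 6 were protein-coding genes on 3 chromosomes. Slpi lies on chromosome 2 from 164354070 to 164389095 on the minus strand, and Wfdc2 lies on the same chromosome from 164562413 to 164568510 on the plus strand. Defb14 and Defb1 lie on chromosome 8, from 19194357 to 19195212 and from 21776599 to 21795185, both on the plus strand. Camp lies on chromosome 9 from 109847379 to 109849617 on the minus strand, and Ltf from 111019271 to 111042767 on the plus strand. The values count RNA over the whole gene, so no exon or UTR can be singled out.

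The promoters of Slpi, Wfdc2 and Ltf are shown. Among the 6 genes Slpi had the highest level and Wfdc2 the clearest fall with stage, and Ltf had its own highest values in tumor. Each is the RefSeq sequence on GRCm38.p6 from 250 bases before to 50 bases after the start that RefSeq gives the gene, written in the direction of the gene. The GENCODE spans above run over all transcripts of a gene, so their ends differ from the RefSeq starts, which are 164356507 for Slpi, 164562715 for Wfdc2 and 111019292 for Ltf. Of the 6 genes, 4 had an entry in the promoter table. Capitals mark a match to a motif that was searched on both strands. The TATA box was searched as TATAAA and the GC box as GGGCGG. The AP-1 motif was searched as TGANTCA, the C/EBP motif as TTGCNNAA and the STAT motif as TTCNNNGAA, and the NF-kappaB motif was searched too.
Slpi (chr2:164356458-164356757, minus strand): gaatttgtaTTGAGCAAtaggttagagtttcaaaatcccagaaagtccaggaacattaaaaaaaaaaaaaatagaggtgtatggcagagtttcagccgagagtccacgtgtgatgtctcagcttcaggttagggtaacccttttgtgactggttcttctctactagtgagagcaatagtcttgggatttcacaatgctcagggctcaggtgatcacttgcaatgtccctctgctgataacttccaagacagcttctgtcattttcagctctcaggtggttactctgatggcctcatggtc
Wfdc2 (chr2:164562465-164562764, plus strand): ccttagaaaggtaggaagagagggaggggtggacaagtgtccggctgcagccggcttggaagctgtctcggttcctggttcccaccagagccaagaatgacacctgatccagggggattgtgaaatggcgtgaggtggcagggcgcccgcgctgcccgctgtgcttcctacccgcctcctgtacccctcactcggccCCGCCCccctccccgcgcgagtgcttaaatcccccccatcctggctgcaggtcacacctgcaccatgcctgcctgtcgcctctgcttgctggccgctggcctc
Ltf (chr9:111019042-111019341, plus strand): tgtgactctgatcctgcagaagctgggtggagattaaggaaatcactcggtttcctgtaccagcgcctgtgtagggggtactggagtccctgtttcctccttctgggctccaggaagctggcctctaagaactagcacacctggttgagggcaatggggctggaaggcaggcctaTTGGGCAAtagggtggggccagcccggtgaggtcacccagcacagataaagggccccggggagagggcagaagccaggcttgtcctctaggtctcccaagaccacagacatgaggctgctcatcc
All 3 matches are on the strand opposite to the gene. In Slpi the capitals are a C/EBP match that begins 241 bases before the RefSeq start, and in Ltf a C/EBP match that begins 75 bases before it. That motif occurred in 10.8% of 27025 promoters of the same length. In Wfdc2 the capitals are a GC box that begins 53 bases before the start, a motif found in 35.9% of promoters. The G and C content was 43.3% in Slpi, 58.7% in Ltf and 65.3% in Wfdc2, against a median of 52.7% over all promoters. None of the 6 motifs was found in the window of Camp. A match describes letters in this window and does not show that a factor binds there.

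Values are given as log2(TPM + 1), where TPM is a relative abundance scaled for gene length, so that levels may be set side by side between genes. Sequencing depth cannot be read from TPM, and no counting interval is therefore given. In 3 stroma libraries, 3 genes (Lars2, March6 and D17H6S53E) held a large share of all TPM, with 86% in hyperplasia stroma 1, 53.4% in dysplasia stroma 2 and 47.4% in normal stroma 1. Hyperplasia stroma 1 also had 4681 genes with a TPM of 1 or more, against 10392 to 15519 in the other libraries. Averaged over the 4 stages, the compartments matched their labels at an adjusted p under 0.05. All 18 keratinocyte markers tested were higher in epithelium, and all 10 fibroblast markers and all 10 muscle markers were higher in stroma. In normal tissue alone 6, 9 and 8 of them passed in these directions. In tumor alone 0 passed, where 1 of 15499 genes did, with median differences (epithelium minus stroma) of 2.45, -2.37 and -2.62. In bulk tissue, fewer cells of a type and less RNA per cell cannot be told apart.

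In epithelium the order of levels was Slpi, Defb14, Defb1, then Wfdc2 and Ltf, and last Camp. Slpi lay between 182 and 3890 TPM over the 13 epithelium libraries, with a median of 672. Defb14 lay between 23.9 and 412 TPM with a median of 189, and Defb1 between 5.59 and 64.9 with a median of 20.3. The medians of Wfdc2 and Ltf were 3.83 and 3.78 TPM, and their ranges overlapped almost wholly. Camp had a median of 0.399 TPM and never passed 2.25.

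**Figure D1:**
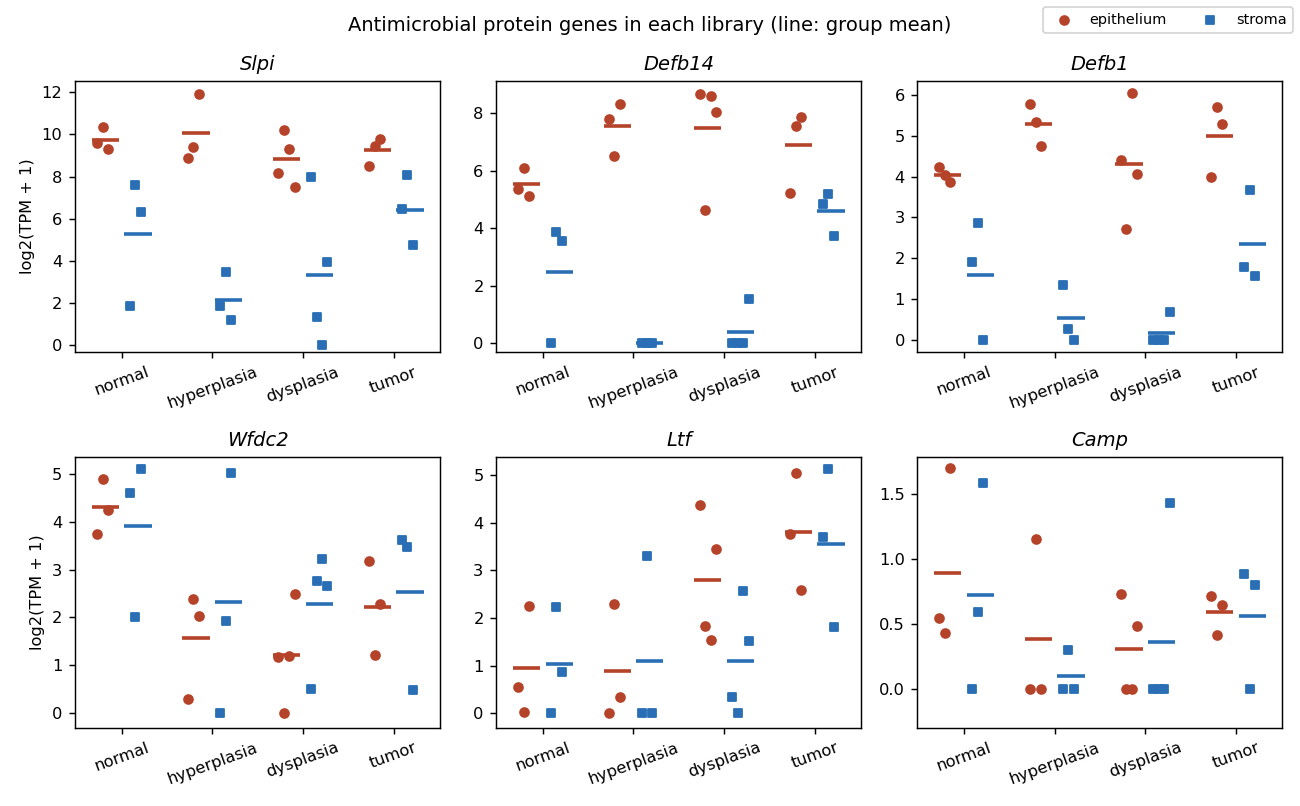
Level of each gene as log2(TPM + 1) in each library, by stage, with epithelium as circles and stroma as squares; the short line is the group mean and the scale differs between panels. Slpi, Defb14 and Defb1 lie higher in epithelium, within epithelium Wfdc2 is highest in normal tissue, and Ltf has its highest group means in tumor.

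Slpi, Defb14 and Defb1 were far higher in epithelium than in stroma, while Wfdc2, Ltf and Camp showed no such difference. Each epithelium library was set against the stroma library of the same stage, code number, age and sequencing run, giving 13 pairs, and the differences were averaged over the 4 stages with equal weight. Of the 6 genes, 3 passed the threshold (adjusted p of 0.05), all 3 with epithelium higher, where 18.7% of the 15499 genes tested were called higher in epithelium, 10.8% were called lower and 29.5% were called in all. All p-values here come from limma with Benjamini-Hochberg adjustment over all genes tested.

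Defb14 was higher in epithelium by 5.0 ± 0.38 (SE) on the log2 scale (adjusted p = 2.27e-08). It was listed at 0 in 7 of 13 stroma libraries, so the size depends on the pseudocount, and it ran from 4.42 to 6.78 over the alternatives. The epithelium was the higher member in 13 of 13 pairs, and an exact two-sided sign-flip permutation test over the pairs gave p = 0.000244, the smallest it can give. Defb1 was higher by 3.50 ± 0.32 (adjusted p = 6.99e-08), again in 13 of 13 pairs. With 5 of 13 stroma libraries listed at 0, its difference ran from 3.12 to 5.04 over the alternatives. Slpi was higher by 5.16 ± 0.65 (adjusted p = 3.1e-06), in 12 of 13 pairs. The exception for Slpi was the pair of dysplasia epithelium 4, at 7.51, and dysplasia stroma 1, at 8.0. Defb14 and Defb1 were both listed at 0 in that stroma library.

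Wfdc2 differed between the compartments by -0.43 ± 0.42 (95% interval -1.31 to 0.45, adjusted p = 0.477), with epithelium higher in 5 of 13 pairs. Ltf differed by 0.41 ± 0.31 (adjusted p = 0.349) and Camp by 0.11 ± 0.18 (adjusted p = 0.706). These intervals do not show that the compartments have equal levels. The differences were alike in the 2 sequencing runs: over the 7 pairs of run 1 and the 6 pairs of run 2, Defb14 differed by 5.20 and 5.13, Defb1 by 3.79 and 3.27, and Slpi by 5.57 and 4.74.

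**Figure D2:**
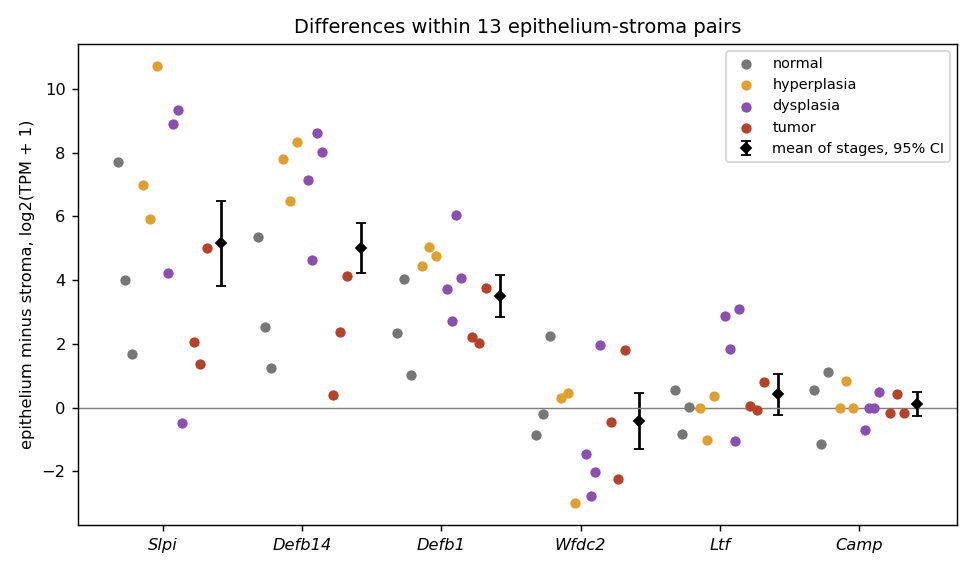
Epithelium minus stroma within each of the 13 pairs on the log2(TPM + 1) scale, coloured by stage, with the mean of the 4 stages and its 95% confidence interval as a black diamond. All points of Defb14 and Defb1 lie above 0, and Slpi has 1 point below it; where the stroma library is listed at 0, the point is the level of the epithelium library itself.

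The estimated gap between the compartments was wider in hyperplasia and dysplasia than in normal tissue and tumor for all 3 genes; the test of that change follows the values. The median gap of the 18 keratinocyte markers was 2.48 in normal, 5.23 in hyperplasia, 3.43 in dysplasia and 2.45 in tumor, and its part in the pattern was not tested. In hyperplasia all 3 hyperplasia stroma libraries listed Defb14 at 0, while the epithelium stood at 6.50, 7.82 and 8.33. The test for that stage gave an adjusted p of 8.95e-06, and no fold is given against a group at 0. In the same stage Defb1 was higher in epithelium by 4.75 ± 0.66 (adjusted p = 6.51e-05) and Slpi by 7.88 ± 1.33 (adjusted p = 0.000432), where 15.8% of all genes were called. The median of all genes also leaned towards epithelium in hyperplasia, by 0.58, and this lean fell to 0.01 when TPM was rescaled without the 3 dominant genes.

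In dysplasia, where 9.05% of all genes were called, the same 3 genes passed. Defb14 was higher in epithelium by 7.11 ± 0.69 (adjusted p = 9.53e-06), Defb1 by 4.14 ± 0.57 (adjusted p = 0.000137) and Slpi by 5.49 ± 1.16 (adjusted p = 0.00359). Both defensins were listed at 0 in 3 of 4 dysplasia stroma libraries. Over the alternatives the difference ran from 6.57 to 9.72 for Defb14 and from 3.51 to 6.84 for Defb1. Ltf was higher by 1.69 ± 0.56 without passing (adjusted p = 0.0623). It passed under 3 of 23 alternatives, among them without dysplasia epithelium 3 (adjusted p = 0.00573) and without hyperplasia epithelium 1 (adjusted p = 0.0433).

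In normal tissue, with 3.06% of all genes called, Defb14 was higher in epithelium by 3.05 ± 0.79 (adjusted p = 0.0395) and Defb1 by 2.46 ± 0.66 (adjusted p = 0.0456). Slpi was higher by 4.47 ± 1.33 without passing (adjusted p = 0.0709). Both calls rest on single libraries: without normal epithelium 1 and its partner the difference of Defb14 was 1.90 and that of Slpi 2.85, and the adjusted p was 0.526 for Defb14 and 0.308 for Defb1, without normal epithelium 2 it was 0.252 and 0.56, and without the pairing it was 0.0755 and 0.0889. Leaving out dysplasia epithelium 1 or tumor epithelium 2 also lost both calls, and Defb1 was lost without normal epithelium 3, dysplasia epithelium 4 or tumor epithelium 1 or 3, while Slpi passed without hyperplasia epithelium 3 or dysplasia epithelium 2, 3 or 4, with adjusted p-values of 0.0223 to 0.0475. In tumor none of the 6 genes passed, where 0.00645% of all genes (1 gene) were called. Defb14 was higher in tumor epithelium by 2.30 ± 0.79 (adjusted p = 0.227), Defb1 by 2.66 ± 0.66 (adjusted p = 0.125) and Slpi by 2.82 ± 1.33 (adjusted p = 0.454), with unadjusted p-values of 0.00837, 0.000572 and 0.0462. Without tumor epithelium 3 the difference was 1.39 for Defb14 and 1.72 for Slpi. Without the 3 stroma libraries dominated by few genes, Defb14 (adjusted p = 0.0322) and Defb1 (adjusted p = 0.0198) passed in tumor, and Defb1 also passed without hyperplasia epithelium 1 (adjusted p = 0.0376).

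Whether the gap itself changed with stage was tested as the difference of the differences. For Defb14 the change from normal to hyperplasia had an unadjusted p of 0.000599 and an adjusted p of 0.67, with no size given since hyperplasia stroma was at 0. From normal to dysplasia the estimated gap of Defb14 differed by 4.06 ± 1.05, with an unadjusted p of 0.000852 and an adjusted p of 1. That size ran from 3.16 to 6.04 over the alternatives. None of the 6 genes passed in any of the 3 such limma tests, nor did any other gene (0%); an unadjusted p under 0.05 was reached by 2 of the 6 for hyperplasia, 2 for dysplasia and 0 for tumor, against 7.38%, 2.66% and 1.25% of all genes.

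Within the epithelium, Wfdc2 fell from normal to dysplasia, and the other 4 genes tested there did not pass. Wfdc2 encodes a small secreted protein with whey acidic protein domains, made by many glandular and airway epithelia and known in human as HE4. Normal epithelium stood at 3.75, 4.89 and 4.25, hyperplasia at 0.30, 2.39 and 2.02, dysplasia at 1.18, 0.00, 1.19 and 2.48, and tumor at 3.17, 1.21 and 2.27. Every library of the 3 diseased stages lay below every normal library, and the share of all genes that separate so was not counted.

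From normal to dysplasia Wfdc2 fell by 3.20 ± 0.54 in epithelium (adjusted p = 0.0074), where 0.269% of 14126 genes were called lower and 0.467% were called in either direction. The difference was -3.06 within run 1 and -3.08 within run 2. Among the alternatives run, the call was lost only without normal epithelium 1, with a difference of -3.36 and an adjusted p of 0.0574. The difference of hyperplasia from normal was -2.97 ± 0.59 (adjusted p = 0.0689, 0.0354% of genes called), and it passed without hyperplasia epithelium 2 or 3, dysplasia epithelium 2 or 4 or tumor epithelium 1, with adjusted p-values of 0.00691 to 0.0458. That of tumor from normal was -2.32 ± 0.59 (adjusted p = 0.199, 0.0496% called), which passed without dysplasia epithelium 2 (adjusted p = 0.0416). A joint test over the 4 stages called Wfdc2 as well (adjusted p = 0.0381, 0.163% called). That call was lost under a pseudocount of 0.1 (adjusted p = 0.189), under rescaling without the 3 dominant genes (0.127), under quantile normalization (0.0774), without the filter (0.0908), without the run term (0.0707) or a prior that follows the mean level (0.0789), and without normal epithelium 1 or 2 or dysplasia epithelium 1 or 3.

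In stroma Wfdc2 overlapped between all stages. Normal stroma stood at 4.60, 2.00 and 5.10, hyperplasia at 0.00, 1.93 and 5.02, dysplasia at 0.51, 2.77, 3.21 and 2.65, and tumor at 3.61, 3.47 and 0.48. The mean was 3.90 ± 1.67 (SD, n = 3) in normal stroma and 2.52 ± 1.77 (SD, n = 3) in tumor stroma. Whether the fall of Wfdc2 was larger in epithelium than in stroma was among the difference tests above, and did not pass.

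Ltf had its highest values in tumor, without passing the threshold. In epithelium it stood at 0.55, 0.02 and 2.26 in normal, at 0.00, 2.29 and 0.35 in hyperplasia, at 4.38, 1.83, 1.53 and 3.45 in dysplasia, and at 3.76, 5.05 and 2.59 in tumor. All 3 tumor libraries lay above all normal and hyperplasia libraries and overlapped with dysplasia. The share of all genes that separate so was not counted. Ltf differed between tumor and normal epithelium by 2.72 ± 0.76 (unadjusted p = 0.00172, adjusted p = 0.307), or by 1.52 without tumor epithelium 2, and between tumor and hyperplasia by 2.93 ± 0.74 (adjusted p = 0.497, where 0% of all genes were called and 1.9% had an unadjusted p under 0.05). The joint test over the 4 stages gave Ltf an adjusted p of 0.192, or 0.0212 without dysplasia epithelium 2.

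The difference of Ltf was larger within run 2 than within run 1, and dependence on the run was not tested. Between tumor and normal epithelium it was 0.92 within run 1 (2 tumor libraries against 1) and 4.77 within run 2 (1 against 2). In stroma the same difference was 0.51 within run 1 and 4.70 within run 2. Run 2 held 1 tumor library in each compartment, so a difference between runs and 1 unusual library cannot be told apart. Stroma values of Ltf were 0.00, 2.24 and 0.86 in normal, 0.00, 3.30 and 0.00 in hyperplasia, 0.35, 0.00, 2.56 and 1.51 in dysplasia, and 3.71, 5.13 and 1.81 in tumor. The fitted difference of tumor from normal stroma was 2.22 ± 0.88 (unadjusted p = 0.0137, adjusted p = 1), and it was 0.53 without tumor stroma 2.

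Salivary gland and neutrophils are both known sources of lactotransferrin, so markers of both stand beside it. The mean of the 18 salivary gland markers with a row was at most 1.72 in 23 of the libraries. It was 3.64 in tumor epithelium 1, 3.84 in tumor stroma 1 and 4.04 in tumor stroma 2. The libraries with the highest Ltf were tumor stroma 2, with high gland markers, and tumor epithelium 2, where the gland markers averaged 0.83. The mean of the 19 neutrophil markers with a row was 0.78 to 1.74 in normal, 1.42 to 2.92 in hyperplasia, 0.95 to 2.31 in dysplasia and 2.01 to 2.5 in tumor epithelium, so that the highest epithelium library was hyperplasia epithelium 2. In stroma it was 0.73 to 1.29 in normal, 0.31 to 2.33 in hyperplasia, 0.97 to 1.94 in dysplasia and 2.18 to 3.19 in tumor. S100a8 and S100a9, which keratinocytes also make, had the widest range among these markers in epithelium, with group means of 1.19 and 0.43 in normal and 8.57 and 8.40 in tumor. The other neutrophil markers went both ways between normal and tumor epithelium. Mpo averaged 1.63 in normal and 1.48 in tumor epithelium, Elane 0.27 and 0.07, and Ctsg 0.55 and 0.18. Csf3r averaged 1.07 in normal and 2.94 in tumor epithelium, Itgam 1.29 and 2.86, and Mmp9 0.92 and 2.48. The part of either cell type in the Ltf values was not tested.

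**Figure D3:**
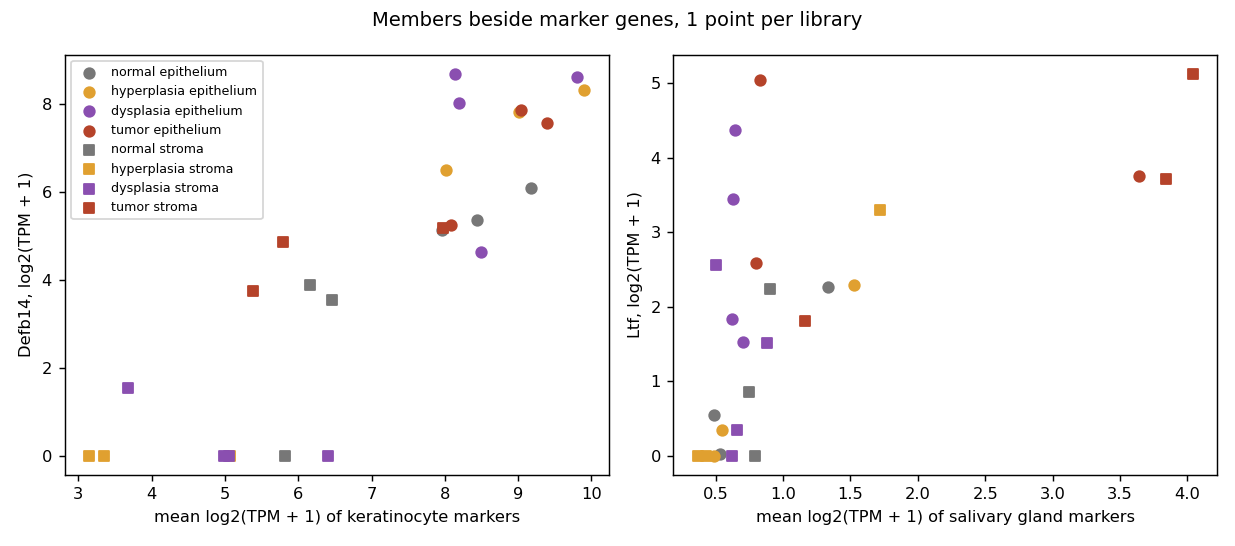
Left, Defb14 against the mean of 18 keratinocyte markers; right, Ltf against the mean of 18 salivary gland markers; all as log2(TPM + 1), 1 point per library, circles for epithelium and squares for stroma. The 3 libraries with gland markers above 3 are all from tumor, while tumor epithelium 2 has Ltf at 5.05 with gland markers at 0.83.

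No stage difference of the defensins passed in epithelium. Their hyperplasia ranges lay above their normal ranges, and the share of all genes that separate so was not counted. Defb14, the mouse counterpart of human beta-defensin 3, stood at 5.37, 6.09 and 5.13 in normal epithelium and at 7.82, 6.50 and 8.33 in hyperplasia. In dysplasia it stood at 8.69, 4.64, 8.61 and 8.03, and in tumor at 5.24, 7.57 and 7.87. The hyperplasia range lay wholly above the normal range, while dysplasia and tumor each had 1 library within or below it.

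Defb14 differed between hyperplasia and normal epithelium by 1.91 ± 0.89 (unadjusted p = 0.0431, adjusted p = 1). In that comparison 3.67% of all genes had an unadjusted p under 0.05. Between dysplasia and normal the difference was 1.91 ± 0.82 (adjusted p = 0.455). Dysplasia epithelium 2 set that value: without it the difference was 3.03 with an adjusted p of 0.0103. It came from a mouse of 16 weeks, the lowest age in dysplasia, and its 3 dominant genes held 17.2% of TPM, against at most 2.91% in the other epithelium libraries. Defb1, a defensin that many epithelia make constitutively, stood at 4.04 ± 0.19 (SD, n = 3) in normal epithelium, 5.29 ± 0.52 (SD, n = 3) in hyperplasia, 4.31 ± 1.37 (SD, n = 4) in dysplasia and 5.0 ± 0.90 (SD, n = 3) in tumor. Its hyperplasia range also lay above the normal range.

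Slpi had the highest level of the 6 and no stage pattern in epithelium. It stood at 9.57, 10.34 and 9.29 in normal, at 8.87, 9.39 and 11.93 in hyperplasia, at 8.18, 10.22, 9.33 and 7.51 in dysplasia and at 8.52, 9.47 and 9.79 in tumor. The ranges of all stages overlapped.

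**Figure D4:**
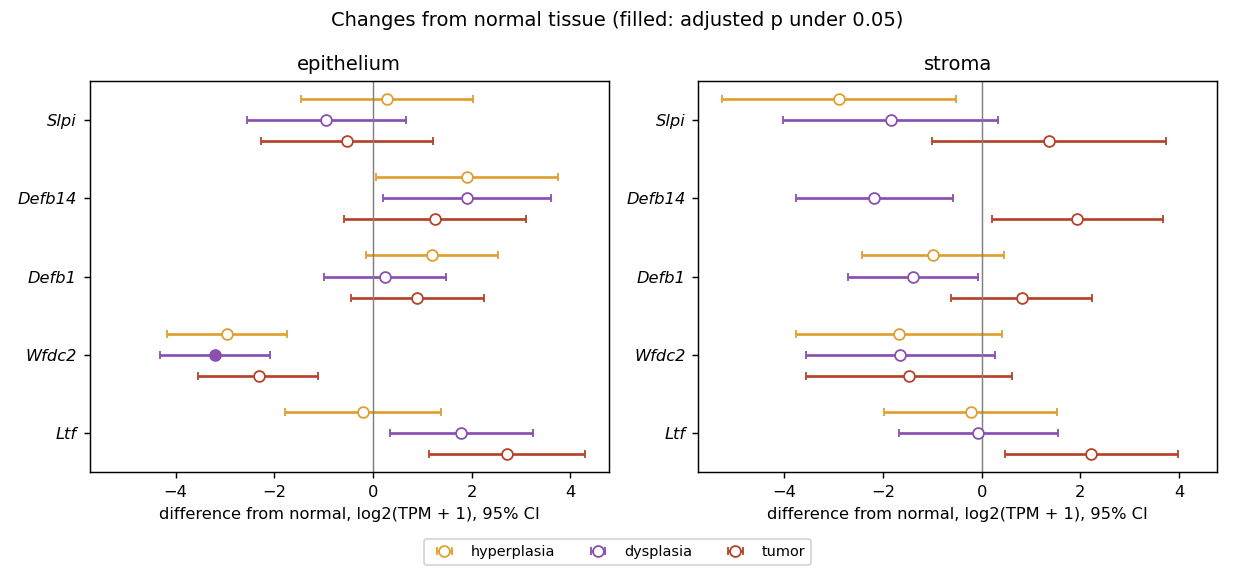
Difference of each stage from normal tissue with its 95% confidence interval on the log2(TPM + 1) scale, in epithelium (left) and stroma (right); filled points passed an adjusted p of 0.05. The fall of Wfdc2 in dysplasia epithelium is the filled point; hyperplasia stroma has no point for Defb14, which is listed at 0 in all 3 libraries, and Camp was not tested within a compartment.

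In stroma, Defb14 was higher in tumor than in hyperplasia and dysplasia. Tumor stroma stood at 4.85, 5.19 and 3.74. Hyperplasia stroma was listed at 0 in all 3 libraries, dysplasia stroma was listed at 0 in 3 and stood at 1.53 in the other, and normal stroma stood at 0.00, 3.88 and 3.55. Tumor stroma thus lay above every other stroma library except normal stroma 2, at 3.88, which lay within its range.

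Defb14 was higher in tumor than in dysplasia stroma by 4.12 ± 0.80 (adjusted p = 0.00259, 0.141% of 14883 genes called). The SE and p-values of this stroma fit rest mostly on the spread of other genes. Its prior had 71.8 degrees of freedom, against 8 from the gene itself. Against hyperplasia the adjusted p was 0.00114 (0.155% of genes called), with no fold since hyperplasia was at 0. The joint test over stages called it too (adjusted p = 0.000785, 0.195% called). These 3 calls depended on the scale: with a pseudocount of 0.1 the adjusted p-values were 1, 0.49 and 0.887, and they were also lost under rescaling, quantile normalization and a prior without trend. Without tumor stroma 2 the adjusted p was 0.441 against dysplasia and 0.0593 against hyperplasia, without dysplasia stroma 3 it was 0.104 against dysplasia, and without hyperplasia stroma 1 or 2 it was 0.116 or 0.0506 against hyperplasia. The joint call was lost without hyperplasia stroma 1 (adjusted p = 0.0958). Against normal stroma the difference was 1.94 ± 0.87 (unadjusted p = 0.0286, adjusted p = 1), where 0.0806% of genes were called, and it was 0.86 without normal stroma 1 and 1.20 without tumor stroma 2.

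Defb1 and Slpi also had their highest stroma means in tumor, without passing. Defb1 stood at 1.91, 2.85 and 0.00 in normal stroma, at 1.35, 0.27 and 0.00 in hyperplasia, at 0.00, 0.00, 0.00 and 0.68 in dysplasia and at 1.79, 3.67 and 1.55 in tumor. Tumor lay above all hyperplasia and dysplasia libraries and overlapped with normal, again with no share of all genes counted. Slpi stood at 1.88, 7.60 and 6.33 in normal stroma, at 1.88, 3.46 and 1.19 in hyperplasia, at 8.0, 1.34, 0.00 and 3.97 in dysplasia and at 6.45, 8.09 and 4.78 in tumor. Slpi differed between tumor and hyperplasia stroma by 4.26 ± 1.16 (unadjusted p = 0.000424, adjusted p = 0.148). It passed without any 1 of the 3 normal stroma libraries, dysplasia stroma 1, 2 or 4 or tumor stroma 3, with adjusted p-values of 0.00653 to 0.0344. Between tumor and dysplasia stroma the difference of Slpi was 3.21 ± 1.09 (adjusted p = 0.646), or 4.67 with an adjusted p of 0.00274 without dysplasia stroma 1, and 1.95 without dysplasia stroma 3.

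Keratinocyte markers were also detected in stroma, with the lowest mean in a hyperplasia library. The mean of the 18 markers with a row was 5.82 to 6.46 in normal stroma, 3.15 to 5.07 in hyperplasia stroma, 3.67 to 6.40 in dysplasia stroma and 5.38 to 7.97 in tumor stroma, against 7.96 to 9.90 in epithelium. Tumor stroma 2, with the highest Defb14, Defb1 and Slpi of the tumor stroma libraries, also had the highest keratinocyte mean. Dysplasia stroma 3 had a keratinocyte mean of 6.40 with Defb14, Defb1 and Slpi all listed at 0. That library listed 3292 genes at 0, among them 3 of the 18 keratinocyte markers, against 52 genes in dysplasia stroma 4. The part of epithelial cells in the stroma values was not tested.

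Camp was low in every group. It was listed at 0 in 4 of 13 epithelium and 7 of 13 stroma libraries, and its highest value was 1.70, in normal epithelium 3. It passed the filter on low values (a TPM of 1 or more in at least 3 libraries) in the paired comparison and in neither compartment alone. A gene listed at 0 may still be expressed below what these libraries detect.

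Other antimicrobial genes came from a list of 35, of which 15 were tested between compartments. Of the 15, 8 were higher in epithelium, where 18.7% of all genes were, and 1 was lower, where 10.8% were, with a median difference of 0.77 against 0.16 over all genes. They included Wfdc5, of the same family as Slpi and Wfdc2, higher by 3.91 ± 0.39 (adjusted p = 1.93e-07), and the peptidoglycan recognition proteins Pglyrp3, higher by 2.93, and Pglyrp4, higher by 2.95. From normal to dysplasia epithelium, where 0.198% of all genes were called higher, 2 of 15 rose and none passed as lower: S100a9 by 6.69 (adjusted p = 0.0301) and S100a8 by 6.24 (adjusted p = 0.0389), the subunits of calprotectin, which binds metals and which neutrophils also hold. From normal to tumor stroma, where 0.0806% of all genes were called higher, 4 of 14 rose: S100a8 by 7.30, S100a9 by 6.63, Bpifb1 by 7.10 and Dmbt1 by 4.97. Bpifb1 and Dmbt1 are products of salivary gland and airway epithelium and stand in the salivary gland marker list as well.

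A further list held cytokines, receptors, adaptors and transcription factors of pathways known to induce antimicrobial proteins. Of these, 33 were tested between compartments, with 12 higher in epithelium and 2 lower, where 18.7% and 10.8% of all genes were called so. Their median difference was 0.52 against 0.16 over all genes. Il1f6, an interleukin 36 cytokine, was higher by 5.13 ± 0.43 (adjusted p = 4.12e-08), Il1f8 by 3.29 and Il1f9 by 2.52, and Il22ra1, a subunit of the interleukin 22 receptor, by 2.22. No gene of this list passed between normal and dysplasia epithelium, with 30 tested. Between tumor and normal stroma 1 of 31 passed, Il1b, higher by 4.52 (adjusted p = 0.0322).

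Of the receptors, partners and protease targets of the 6 proteins, 18 were tested between compartments, with 4 higher in epithelium and 2 lower, and a median of -0.09, where 18.7% and 10.8% of all genes were called higher and lower, so that the counts lie near the background. The kallikrein proteases Klk7, higher by 3.52, and Klk5, higher by 1.63, were among them, as was the transferrin receptor Tfrc, higher by 1.49. Lrp1, a receptor that takes up lactotransferrin, was lower in epithelium by 0.96 on the log2 scale (listed as -0.96, adjusted p = 0.00812). Klk5 fell by 2.80 from normal to dysplasia epithelium (adjusted p = 0.0217), the only 1 of 16 on this list to pass there.

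The genes whose levels ran most alike over the 13 libraries of a compartment were found by Pearson correlation, given without a test since the points share library composition. For Defb14 in epithelium they were Piga (0.95), Hbegf (0.94) and Rbms1 (0.94), and the correlation with Defb1 was 0.69. For Defb1 they included Snx1 (0.89) and Dock5 (0.89). For Slpi they were Cysrt1 (0.97), Ide (0.95) and Hpse (0.95), while its correlation with Defb14 was -0.11 and with Ltf -0.56. For Ltf they were Slc16a14 (0.89), Pi15 (0.88) and Adamts4 (0.86). For Wfdc2, taken in stroma where its mean was higher, they were Mycl (0.87), Mex3b (0.84) and Cryz (0.81). The nearest genes to Camp in epithelium were Thsd7a (0.96), Hoxd11 (0.95) and Fam69c (0.94), at levels of Camp too low to pass the filter.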

How the data were processed

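Per the labels' protocols, RNA came from laser-dissected paraffin sections. The deposited table holds log2 values of TPM plus 1 made by the authors. This scale was inferred, since reversing it gave TPM totals of 179645 to 895312. Tools named in the submitters' processing notes include STAR 2.5.1b, HTSeq 0.10.0 and Salmon 0.9.1 with build GRCm38.p6, with no role or order given. Depth per library is unknown.

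Genes with an identifier of their own (16397 of 18676 rows) were kept where at least 3 libraries of a fit reached a TPM of 1. They were tested with limma 3.58.1 in R 4.3.3, with a prior that follows the mean level. The prior had 71.8 degrees of freedom in the stage fit in stroma, 13.5 in that in epithelium and 12.9 in the fit on pairs. Each gene itself gave 8, 8 and 9. The stage fit in epithelium and the fit on pairs were tried on simulated data, and the stage fit in stroma was not. Stage fits were made within a compartment with sequencing run as a term. Compartments were compared on differences within 13 pairs that share stage, code number, age and run in the labels. The labels do not say that partners come from the same animal; the correlation of their deviations from group means was -0.12 to 0.60, over 0.1 in 7 of 13. Adjusted p-values are Benjamini-Hochberg over all genes tested, with a threshold of 0.05. Ranges of stages were compared only for the antimicrobial genes described, so no share of all genes stands beside them.

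The 7 genes and the gene lists were chosen with earlier results of these data known. All 7 genes are described. From each list up to 4 genes with the smallest p past the threshold are named, and the 3 genes most alike by Pearson correlation in the compartment with the higher mean; 1 of these genes is not reported here. Alternatives were another pseudocount, filters, rescaling without 3 dominant genes, quantile normalization, all rows, a prior without trend, no run term, age as a covariate, other pairings or blocks and leaving out libraries.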

Additional observations from a re-analysis of the deposited data

Results flagged for a closer look

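Defb14 in dysplasia epithelium had its lowest value, 4.64, in library 2, the other 3 lying between 8.03 and 8.69. Chance marks about 1 in 20 groups of 4 in this way, and 12 such groups were looked at (6 genes in dysplasia epithelium and dysplasia stroma). In dysplasia stroma, library 4 was the only one above 0 for Defb14 (1.53), for Defb1 (0.68) and for Camp (1.43). Where the other 3 values are all 0, any value above 0 stands apart by construction, so the chance rate says nothing about these 3. Library 4 had 52 genes listed at 0, against 1614 to 4637 in the other 3 dysplasia stroma libraries, and the part of this difference in these values was not tested.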

How the results depend on the processing

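Of 1215 repeats of 52 single-gene results, 1120 kept direction and side of the threshold, 51 lost the threshold, 41 passed it and 3 changed sign, all Camp between compartments (-0.02 rescaled, -0.01 under quantile normalization, and -0.01 to 0.27 leaving out a library, lowest without normal epithelium 3). The 52 results had an unadjusted p under 0.05 or belonged to the mean of stages. Many had not passed the threshold in the main fit, so the 1120 say little about the calls. All 51 losses fall on results that had passed. The count of genes called stayed at 3 for the mean of stages, and at 3 for hyperplasia, under every alternative run. For dysplasia it was 3 to 4. In normal tissue the 2 calls between compartments became 0 under a pseudocount of 0.1, no filter, no pairing or without the 3 dominated stroma libraries, 1 under rescaling or a prior without trend, and 0 to 3 leaving out a library. In tumor the 0 became 1 under quantile normalization, 2 without the dominated libraries and 0 to 1 leaving out a library. The joint test in epithelium (1) became 0 under a pseudocount of 0.1, no filter, rescaling, quantile normalization, a prior without trend or no run term, and 0 to 2 leaving out a library. In epithelium, hyperplasia against normal (0) became 1 under the stricter filter of 5 TPM, age as a covariate or a block by title number, tumor against normal became 1 with age, and both were 0 to 1 leaving out a library; dysplasia against normal (1) was 0 to 2. In stroma the joint test, tumor against hyperplasia and tumor against dysplasia (1 each) all became 0 under a pseudocount of 0.1, rescaling, quantile normalization or a prior without trend, and 0 to 2 leaving out a library; the joint test became 2 with age or the block, tumor against hyperplasia 2 with the block, and hyperplasia against normal (0) became 1 with age and 0 to 1 leaving out a library. The replicate block by title number changed no other count. The labels do not say that title numbers pair libraries across stages. Deviations of same-numbered libraries correlated over 0.1 in 6 of 18 cases in epithelium (-0.73 to 0.58) and 4 of 18 in stroma (-0.44 to 0.38). With 3 or 4 libraries per group these correlations cannot show whether such libraries are paired. Rescaling moved the split of genes called higher and lower in epithelium from 2896 and 1681 to 1532 and 2646, and the median of all genes from 0.16 to -0.15. The causes were not tested. With TPM alone, depth cannot be set beside any value.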
